A study of Mus musculus with 6 samples.

Results

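The 9 genes described here are haemoglobin and erythroid genes, picked by symbol from the 35458 Ensembl gene identifiers of the series: the adult alpha globins Hba-a1 and Hba-a2, the adult beta globins Hbb-bs and Hbb-bt, and Alas2, Slc4a1, Klf1, Gata1 and Car2. All 9 were found in the files. They were measured by RNA-seq of CD8+ T cells from mouse spleen, in 3 KO libraries (genotype Cd4creGlut10fl/fl) and 3 control libraries (genotype Cd4cre). Both genotypes thus carry Cd4cre, which puts Cre recombinase under a promoter active in developing T cells, and the KO mice also carry floxed alleles of Glut10, the protein name of Slc2a10. Strain, age, sex and the number of mice behind a library are not stated in the labels, so a p-value speaks of variation among these 6 libraries alone, part of which may be technical. Lymphoma is named in the title, and whether the mice bore tumours is not stated.

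Red cells mature in bone marrow and, in mice, also in the red pulp of the spleen. Nucleated erythroblasts transcribe globin, haem synthesis and membrane genes under the transcription factors Gata1 and Klf1, then expel the nucleus. Young red cells keep globin and other mRNA for a time after the nucleus has gone, and mature red cells lose most of it. A CD8+ T cell is not known for making haemoglobin, so the erythroid genes bear on what else a spleen preparation holds.

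The values are FPKM, fragments per kilobase of exon, scaled to sequencing depth, so levels can be set side by side between genes. Read totals were worked out from the FPKM steps at 3420289, 14683379 and 3004539 fragments in KO 1, 2 and 3 and 11840629, 15020102 and 15036258 in control 1, 2 and 3. Every member came out at whole reads in all libraries, and a read number below means these implied reads. KO 1 and KO 3 were the shallowest libraries and had the most diffuse signal: of 814 smell and pheromone receptor genes, which belong to sensory neurons, 64.7%, 22.9% and 67.3% had reads in KO 1, 2 and 3, against 44.1%, 29.2% and 33.5% in control 1, 2 and 3. The 8 fixed CD8 T markers summed to 1777, 2869 and 2002 FPKM in KO 1, 2 and 3, against 1777, 645 and 474 FPKM in control 1, 2 and 3, and none was at 0 in any library. The targeted gene Slc2a10 had 0 reads in each KO library, against 4, 2 and 2 reads in control 1, 2 and 3, too few to show a loss at this depth.

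The stretches before the start of the globin genes and of Alas2 are shown because these genes had the widest spread between libraries, and that of Gata1 because it had the narrowest on the log2 scale. They are RefSeq sequences of the build GRCm38.p6, 250 bases up to the annotated start, and 7 of the 9 members had an entry. The windows are chr11:32283422-32283671, plus strand (Hba-a1), chr7:103827929-103828178, minus strand (Hbb-bs), chr7:103813924-103814173, minus strand (Hbb-bt), chrX:150547167-150547416, plus strand (Alas2) and chrX:7967911-7968160, minus strand (Gata1). Capitals mark GATAA, the core of the sites that GATA factors bind, CACCC, the core of the site in the beta globin promoter that Klf1 binds, CCAAT and TATAA, each on either strand and with overlaps kept.
Hba-a1: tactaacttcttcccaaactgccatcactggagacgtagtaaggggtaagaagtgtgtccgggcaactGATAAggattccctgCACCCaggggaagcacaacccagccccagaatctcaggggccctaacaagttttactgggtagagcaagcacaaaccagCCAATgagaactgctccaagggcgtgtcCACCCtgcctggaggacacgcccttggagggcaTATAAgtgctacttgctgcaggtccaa
Hbb-bs: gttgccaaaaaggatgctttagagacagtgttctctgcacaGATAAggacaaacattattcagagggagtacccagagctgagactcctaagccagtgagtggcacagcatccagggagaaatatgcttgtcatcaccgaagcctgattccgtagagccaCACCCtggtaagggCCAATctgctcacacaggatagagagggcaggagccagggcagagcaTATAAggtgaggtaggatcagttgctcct
Hbb-bt: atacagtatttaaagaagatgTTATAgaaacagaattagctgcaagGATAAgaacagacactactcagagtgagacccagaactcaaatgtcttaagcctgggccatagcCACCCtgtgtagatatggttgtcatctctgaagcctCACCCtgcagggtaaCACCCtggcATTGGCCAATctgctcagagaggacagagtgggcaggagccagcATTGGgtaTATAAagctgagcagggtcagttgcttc
Alas2: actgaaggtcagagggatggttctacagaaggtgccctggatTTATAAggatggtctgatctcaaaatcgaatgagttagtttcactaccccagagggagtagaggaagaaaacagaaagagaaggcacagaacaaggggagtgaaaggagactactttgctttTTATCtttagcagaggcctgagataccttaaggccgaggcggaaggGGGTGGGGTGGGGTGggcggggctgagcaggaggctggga
Gata1: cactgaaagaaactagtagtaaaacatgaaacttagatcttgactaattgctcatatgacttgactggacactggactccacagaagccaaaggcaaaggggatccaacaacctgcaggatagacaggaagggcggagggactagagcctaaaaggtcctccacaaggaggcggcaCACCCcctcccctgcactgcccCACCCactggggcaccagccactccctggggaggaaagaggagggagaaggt
The window of Hba-a2 shares a run of 247 bases with that of Hba-a1, so these count as almost 1 sequence. GATAA was present in 6 of the 7 windows, the exception being Gata1, and in 22.6% of 32851 RefSeq windows of the same length. CACCC was present in 7 of 7 windows, against 52.0% of all windows. GATAA lay 182 bases before the start in Hba-a1, 209 in Hbb-bs and 204 in Hbb-bt, and as its complement 86 bases before the start in Alas2. TATAA lay 27, 29 and 28 bases before the start in Hba-a1, Hbb-bs and Hbb-bt. CCAAT was present in 5 of 7 windows and 33.8% of all windows, and TATAA in 5 of 7 and 22.8%. A match of letters is a description of the sequence and not evidence that a factor binds it.

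The adult globins were high in control 2 and control 3, and none of them passed 14.7 FPKM in the other 4 libraries. Hbb-bs, a beta chain gene, measured 1.52, 0.621 and 14.7 FPKM in KO 1, 2 and 3, against 1.65, 999.9 and 484 FPKM in control 1, 2 and 3. Those values rest on 4, 7 and 34 reads in KO 1, 2 and 3 and on 15, 11534 and 5589 reads in control 1, 2 and 3. Control 1 thus lay with the KO libraries, the genotypes overlapped, and KO 3 stood above the other KO libraries. Hba-a1, an alpha chain gene, measured 1.44, 1.43 and 13.5 FPKM in KO 1, 2 and 3, against 3.33, 853 and 362 FPKM in control 1, 2 and 3. Hbb-bt, the other beta chain gene, measured 0.832, 0.484 and 2.37 FPKM in KO 1, 2 and 3, against 0.841, 257 and 122 FPKM in control 1, 2 and 3. Both had the order of Hbb-bs in their highest libraries: control 2, then control 3, then KO 3 for Hbb-bt and for Hba-a1. Hba-a2, the second alpha chain gene, measured 0, 0 and 2.99 FPKM in KO 1, 2 and 3, against 0.127, 71.6 and 24.9 FPKM in control 1, 2 and 3. Its floor, the level that 3 reads would give, was 1.32 FPKM in KO 1 and 0.306 FPKM in KO 2, and its value in control 1 was 1 read.

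Summed over the 4 globin genes, the level was 3.80, 2.53 and 33.6 FPKM in KO 1, 2 and 3, against 5.95, 2181 and 992 FPKM in control 1, 2 and 3. Globin reads made up 0.0026% of the implied total in KO 3 (exact 95% interval 0.00205% to 0.00324%), against 0.169% in control 2 (0.167% to 0.171%) and 0.0768% in control 3 (0.0754% to 0.0782%). In KO 1, KO 2 and control 1 they made up at most 0.000465%. Implied reads summed over all genes exceeded the implied total in every library. They came to 3316482 against 3004539 in KO 3 and 16871058 against 15020102 in control 2, so these percentages are approximate. Intervals and floors cover counting error only. Against control 1, Hbb-bs was 606 times higher in control 2 (exact 95% interval 367 to 1083) and 293 times higher in control 3 (178 to 525). In KO 3 it was 8.93 times its level in control 1 (4.74 to 17.7), and 23.7 times its level in KO 2 (10.4 to 63.5). The spread inside each genotype was therefore larger than counting error. In these bulk libraries, fewer erythroid cells and less erythroid RNA per cell cannot be told apart.

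**Figure D1:**
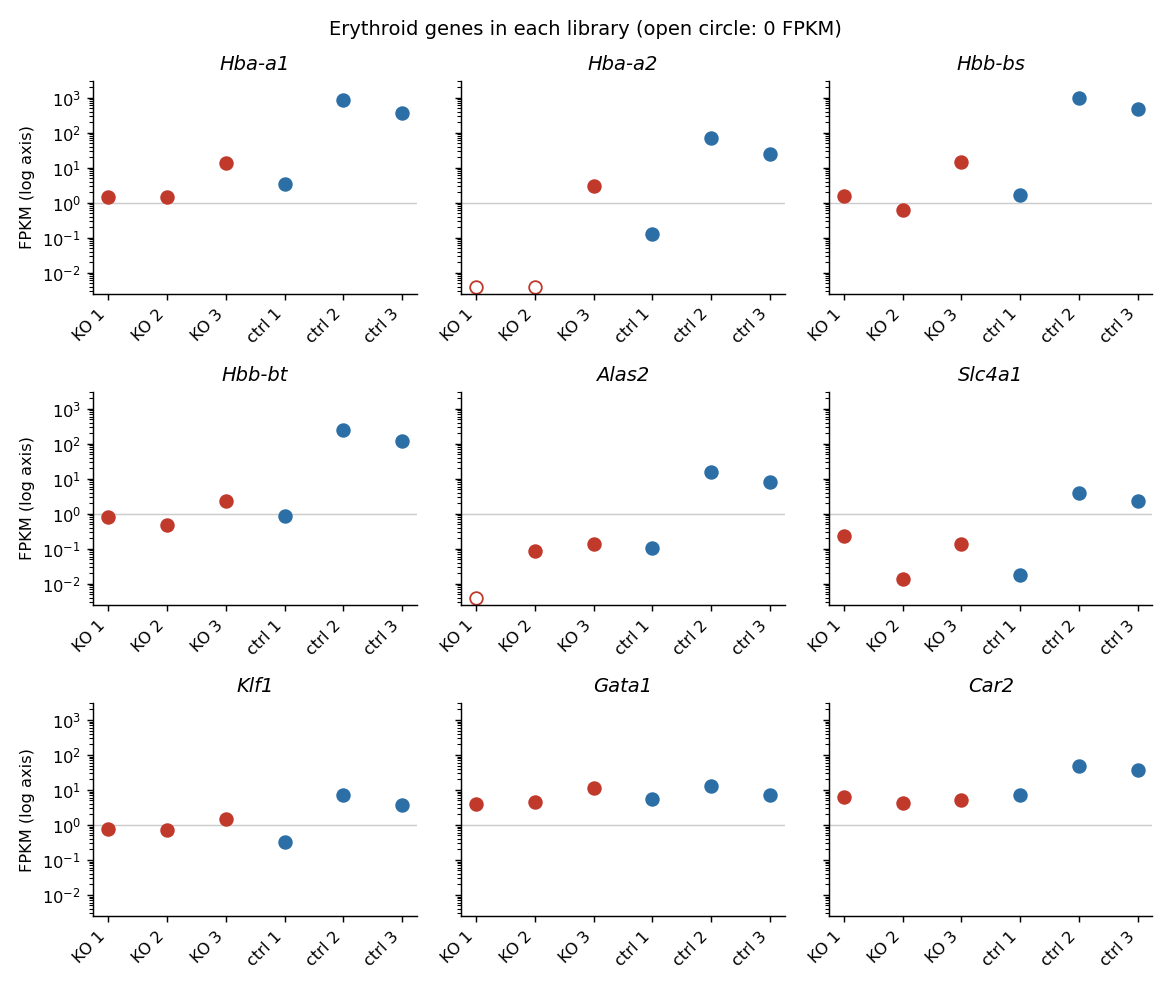
FPKM of the 9 erythroid genes in each library on a log axis, KO libraries in red and control libraries (ctrl) in blue, with an open circle at the foot for 0 FPKM and a grey line at 1 FPKM. Control 2 and control 3 stand above the other libraries for every gene but Gata1, where KO 3 at 11.6 FPKM lies between them.

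The split of the beta pair was close between control 2 and control 3, with intervals that overlapped. For the alpha pair the intervals met only at their edges. Hbb-bs took 87.2% of the reads of the beta pair in KO 3 (exact 95% interval 72.6% to 95.7%, 39 reads), against 81.0% in control 2 (80.3% to 81.6%) and 81.3% in control 3 (80.4% to 82.2%). Hba-a1 took 84.6% of the reads of the alpha pair in KO 3 (69.5% to 94.1%, 39 reads), against 93.6% in control 2 (93.1% to 94.0%) and 94.6% in control 3 (93.96% to 95.3%). Summed alpha over summed beta FPKM was 0.966 in KO 3, against 0.736 in control 2 and 0.639 in control 3. The transcripts share long runs: of all windows of 100 bases, 74.5% of those in the Hba-a2 transcript were also in Hba-a1 and 56.5% of those in Hba-a1 were also in Hba-a2, and 62.6% of those in Hbb-bs were also in Hbb-bt. How reads common to both copies were counted is not given in the sources used here, so the single copies, the split within a pair and the alpha to beta ratio are uncertain. No window of 50 bases was shared between Hba-a1 and Hbb-bs.

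Alas2, the erythroid enzyme that starts haem synthesis, measured 0, 0.0850 and 0.139 FPKM in KO 1, 2 and 3, against 0.105, 15.3 and 8.30 FPKM in control 1, 2 and 3. That is 0, 3 and 1 reads in the KO libraries, against 3, 554 and 300 reads in the controls. Set against the receptor genes, Alas2 exceeded 94.5% of the 814 in KO 2 and 49.3% in KO 3, against 83.7% in control 1 and 100% in control 2 and control 3. In GENCODE M21 Alas2 overlaps Apex2 and Mir3620 on the opposite strand, the only such overlap among the members, and whether counting used strand is not given in the sources used here. Slc4a1, the anion exchanger band 3 of the red cell membrane, measured 0.239, 0.0139 and 0.136 FPKM in KO 1, 2 and 3, against 0.0173, 3.92 and 2.26 FPKM in control 1, 2 and 3. It had 4, 1 and 2 reads in the KO libraries and 1, 288 and 166 in the controls. At 4 reads, KO 1 had the highest Slc4a1 of the KO libraries, and 64.1% of the receptor genes lay below it there.

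Klf1, the factor that activates the adult beta globin and many other erythroid genes, measured 0.764, 0.712 and 1.52 FPKM in KO 1, 2 and 3, against 0.331, 7.18 and 3.61 FPKM in control 1, 2 and 3. The reads were 4, 16 and 7 in KO 1, 2 and 3 and 6, 165 and 83 in control 1, 2 and 3. Klf1 was therefore detected in every library, but in KO 1 and KO 3 it exceeded only 79.9% and 85.4% of the receptor genes, against 99.8% in KO 2, 93.5% in control 1 and 100% in control 2 and control 3. Relative to control 1 it was 21.7 times higher in control 2 (exact 95% interval 9.75 to 59.9) and 10.9 times higher in control 3 (4.80 to 30.5).

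Gata1 departed from this pattern. Gata1 works in red cell precursors and also in megakaryocytes, mast cells, basophils and eosinophils. It measured 4.08, 4.67 and 11.6 FPKM in KO 1, 2 and 3, against 5.37, 12.6 and 7.26 FPKM in control 1, 2 and 3, from 34, 167 and 85 reads against 155, 461 and 266 reads. The genotypes overlapped, and KO 3 lay between control 2 and control 3. In KO 2 and control 1, where Gata1 had 167 and 155 reads, Alas2 had 3 and 3 and Slc4a1 had 1 and 1. Per 100 FPKM of summed globins, Gata1 stood at 107, 184 and 34.5 FPKM in KO 1, 2 and 3, against 90.3, 0.577 and 0.731 FPKM in control 1, 2 and 3. The ratio in KO 1 rests on 10 globin reads and is uncertain. In that library Gata1 exceeded 93.6% of the receptor genes and Hbb-bs 85.7%.

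Reads of markers of the other cells that use Gata1 were also found. The 8 megakaryocyte and platelet markers summed to 206, 66.1 and 827 FPKM in KO 1, 2 and 3, against 353, 295 and 104 FPKM in control 1, 2 and 3, with none at 0. KO 3 had the highest sum, led by Pf4, platelet factor 4, at 656 FPKM. The 7 mast cell and basophil markers summed to 80.02, 151 and 261 FPKM in KO 1, 2 and 3, against 207, 1936 and 1280 FPKM in control 1, 2 and 3, again with none at 0. The 5 eosinophil markers summed to 42.2, 18.6 and 137 FPKM in KO 1, 2 and 3, against 24.9, 1333 and 1665 FPKM in control 1, 2 and 3, with Ccr3 at 0 in KO 1 and Siglecf at 0 in KO 3. Prg2 was most of the eosinophil sum, at 40.8, 14.95 and 134 FPKM in KO 1, 2 and 3. In control 1, 2 and 3 it measured 20.8, 1280 and 1629 FPKM. Epx, Siglecf, Ccr3 and Ear6 had 3, 1, 0 and 3 reads in KO 1 and 1, 0, 3 and 7 reads in KO 3. The part of these cells in the Gata1 values was not tested.

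Car2, a carbonic anhydrase of red cells that other cell types make too, measured 6.16, 4.19 and 5.09 FPKM in KO 1, 2 and 3, against 7.22, 48.5 and 36.4 FPKM in control 1, 2 and 3. Every KO library lay below every control for Car2, with KO 1 at 6.16 FPKM closest to control 1 at 7.22 FPKM. The reads were 51, 149 and 37 in the KO libraries and 207, 1765 and 1327 in the controls. Car2 exceeded 95.9% of the receptor genes in KO 1 and 94.6% in KO 3, against 100% in KO 2 and in each control. Against control 1, KO 2 had 0.580 times the level (exact 95% interval 0.467 to 0.720), while KO 1 had 0.853 times the level, with an interval (0.615 to 1.16) that included 1.

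Ordered by level, Hbb-bs came first of the 9 in control 2, followed by Hba-a1, Hbb-bt, Hba-a2, Car2, Alas2, Gata1, Klf1 and Slc4a1. Control 3 had the same order but for Hba-a2, which came after Car2. In KO 1, KO 2 and control 1 Car2 and Gata1 stood above the other 7. In KO 3 the highest were Hbb-bs, Hba-a1 and Gata1, followed by Car2. Next to each other in KO 3, Hbb-bs and Hba-a1 had 34 and 33 reads, with exact Poisson 95% intervals of 23.5 to 47.5 and 22.7 to 46.3, and did not differ beyond counting error.

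Between genotypes, no erythroid gene passed the test. The limma test on log2(FPKM + 1) took every gene that reached 1 FPKM in 3 or more of the 6 libraries, which kept 7 of the 9 members and left out Alas2 and Slc4a1. Of these 7, 0 passed at a Benjamini-Hochberg adjusted p of 0.05, as did 0% of the 13956 genes tested, and 1 (Car2, lower in KO) had an unadjusted p under 0.05, against 11.8% of all genes (1646) in either direction and 6.46% in that direction. Limma-voom on the implied reads also called 0 members, with 0 at an unadjusted p under 0.05. Every KO library lay below every control for 1 of the 7 (Car2), or 14.3%, against 9.44% of all genes tested, and every KO library lay above every control for 0 of 7, against 6.7%. Estimates were lower in KO for 7 of 7, against 43.1% of all genes, and without a filter for 9 of 9 with a median log2 difference of -2.36, against 0.16 over all 35085 genes above 0. Hba-a2, Hbb-bt and Klf1 reached 1 FPKM in control 2, control 3 and KO 3 only, so they passed the filter only with their values in control 2 and control 3.

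Car2 had a log2 difference of -2.03 (SE 0.68, limma adjusted p = 0.417). Hbb-bs had -4.76 (SE 2.29, limma adjusted p = 0.417) and Hba-a1 -4.64 (SE 2.00, limma adjusted p = 0.417). The globin differences were the largest of the members and also had the largest SE, since control 1 lay with the KO libraries. For Klf1 the difference was -0.91 (SE 0.68, limma adjusted p = 0.513) and for Gata1 -0.33 (SE 0.47, limma adjusted p = 0.740). Without control 1, 4 members passed: Hba-a1 at -6.98 (limma adjusted p = 0.0358), Hbb-bs at -7.44 (0.0385), Hbb-bt at -6.41 (0.0233) and Car2 at -2.82 (0.0233). That is 57.1% of the 7 tested, all lower in KO, and in the same fit 2.6% of all 13956 genes passed in either direction and 1.55% lower in KO. Hba-a2, Hbb-bt and Klf1 were among the 7 only through their values in control 2 and 3. Hba-a1, Hbb-bs and Hbb-bt share control 2 and 3 as their high libraries, so the share is a description only. With control 2 and control 3 both left out, a setting chosen after seeing the data, the log2 differences were 0.03 for Hba-a1, 0.60 for Hbb-bs, 0.18 for Hbb-bt, 0.56 for Klf1 and -0.43 for Car2, relative to the single control 1. Over the fits with 1 library left out, the limma adjusted p ran between 0.0233 and 0.802 for Car2 and for Hbb-bt, 0.0358 and 0.802 for Hba-a1, and 0.0385 and 0.802 for Hbb-bs. The direction for the globins and Klf1, and the calls, thus depended on which controls were in the fit. An exact permutation test of 3 against 3 libraries cannot give a p under 0.1 and was not used.

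**Figure D2:**
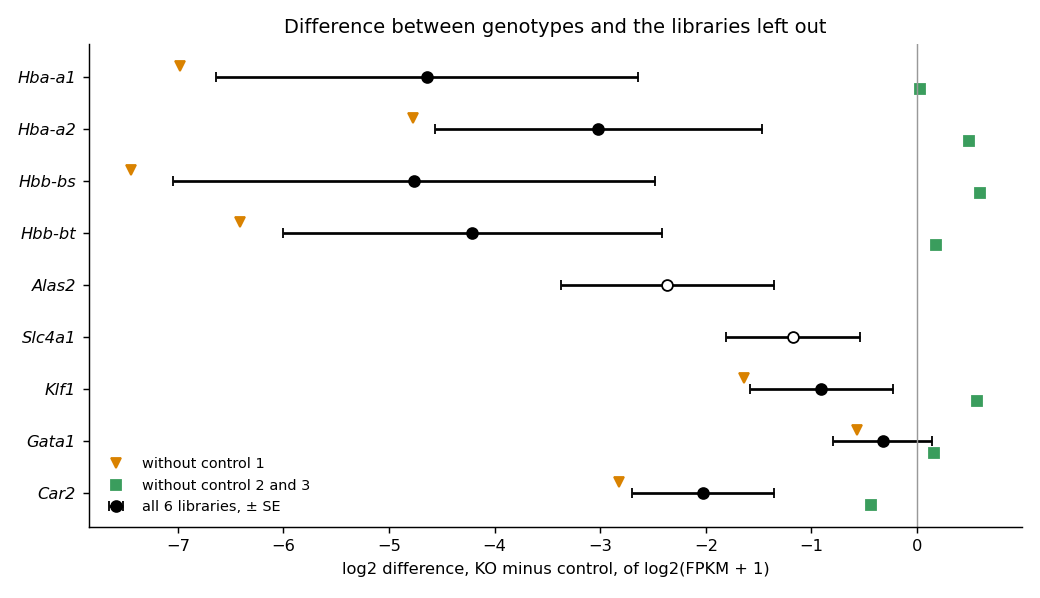
Log2 difference of log2(FPKM + 1), KO minus control, for the 9 erythroid genes, with all 6 libraries (black, ± SE, open for Alas2 and Slc4a1, which come from the fit with no filter and have no other point), without control 1 (orange) and without control 2 and 3 (green). Hbb-bs moves to -7.44 when control 1 is left out and to 0.60 when control 2 and 3 are left out.

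All 9 erythroid genes were higher in control 2 than in control 3, by 1.33 to 2.87 times. Hbb-bs in control 2 was 2.07 times its level in control 3 (exact 95% interval 2.00 to 2.13), and Hbb-bt 2.11 times (1.98 to 2.26). Hba-a1 was 2.36 times (2.28 to 2.44) and Hba-a2 2.87 times (2.48 to 3.33). Alas2 at 1.85 times, Slc4a1 at 1.74, Klf1 at 1.99 and Gata1 at 1.74 had intervals that overlapped one another. Car2 was lowest at 1.33 times (1.24 to 1.43), with an interval that met that of Slc4a1 (1.43 to 2.12) at its edge and lay below those of the other 7 members. Among the globins, the intervals of Hbb-bs and Hbb-bt overlapped, that of Hba-a1 lay above both, and that of Hba-a2 lay above that of Hba-a1. The median over 11826 genes with at least 1 FPKM in both controls was 0.9971, with quartiles of 0.773 and 1.30. Per 100 FPKM of globin, Alas2 stood at 0.704 FPKM in control 2 and 0.837 FPKM in control 3, Slc4a1 at 0.180 and 0.228 FPKM, and Klf1 at 0.329 and 0.364 FPKM.

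**Figure D3:**
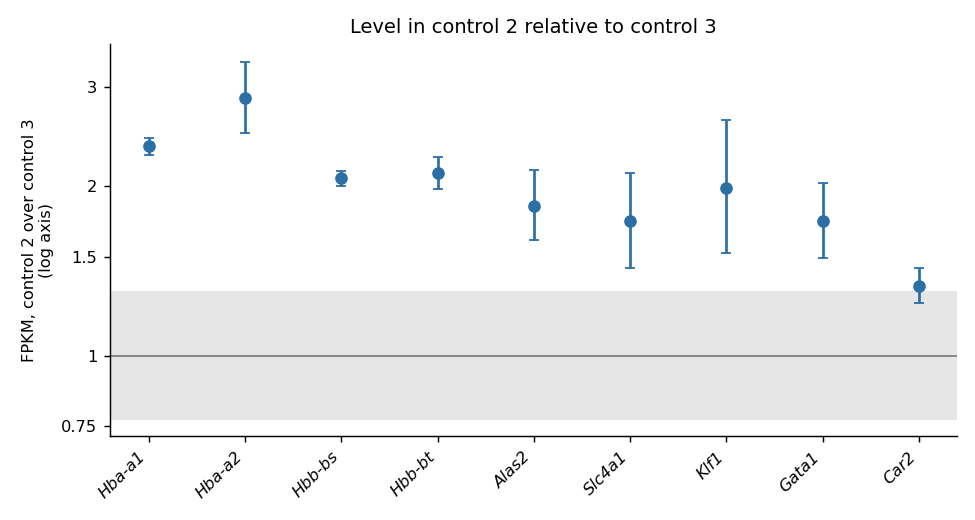
Ratio of FPKM in control 2 to control 3 on a log axis for the 9 erythroid genes, bars being exact 95% intervals for counting error. The grey band spans the quartiles of all genes, 0.773 to 1.30, around their median of 0.9971, and all members but Car2 lie wholly above it.

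In KO 3, the KO library with the most globin reads (78, against 10 in KO 1 and 29 in KO 2), Alas2 had 1 read and Slc4a1 2 reads, or 0.412 and 0.405 FPKM per 100 FPKM of globin. Counts this low do not show whether these proportions differed from those in control 2 and control 3.

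A wider list of 58 other erythroid genes was set by role, of which 54 were found in the files and 37 passed the filter. In limma 0 of the 37 passed the adjusted threshold in either direction, as did 0% of all genes. At an unadjusted p under 0.05, 2 were lower in KO (Fech and Tal1), or 5.41%, against 6.46% of all genes, and 0 were higher. Estimates were lower for 24 and higher for 13, with a median log2 difference of -0.19, against a median of 0.10 over all genes tested. After quantile normalization, 30 of the 37 estimates were lower and the median of the list was -0.43, against -0.12 over all genes. Control 2 and control 3 both exceeded the other 4 libraries for 14 of the 37 (37.8%) and for 6 of the 7 tested members (85.7%), against 15.4% of all 13956 genes tested. This pattern was noticed in these data, and its share is given as a description.

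Among haem synthesis genes after Alas2, which most cells use, 2 of 7 had lower and 5 higher estimates. Fech, the last enzyme, which inserts iron, measured 13.0, 13.1 and 9.18 FPKM in KO 1, 2 and 3, against 14.4, 21.5 and 22.1 FPKM in control 1, 2 and 3, all KO values lying under all control values (log2 difference -0.67, SE 0.27, limma adjusted p = 0.417). Urod, a decarboxylase of this pathway, measured 20.3, 19.8 and 21.3 FPKM in KO 1, 2 and 3, against 18.8, 21.02 and 13.5 FPKM in control 1, 2 and 3, and the genotypes overlapped. All 6 genes of haem and iron transport had lower estimates. Tfrc, the transferrin receptor, which dividing T cells also use, measured 18.4, 49.0 and 17.4 FPKM in KO 1, 2 and 3, against 33.4, 41.2 and 49.9 FPKM in control 1, 2 and 3. KO 2 lay among the controls for Tfrc, and the log2 difference of -0.68 became 0.25 without KO 1 and 3 together. Tmem14c, a mitochondrial porphyrin transporter, measured 66.8, 83.7 and 86.3 FPKM in KO 1, 2 and 3, against 83.3, 102 and 89.7 FPKM in control 1, 2 and 3.

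Of the 5 tested membrane genes, 2 had lower and 3 higher estimates. Epb41, protein band 4.1, measured 19.6, 16.0 and 12.4 FPKM in KO 1, 2 and 3, against 20.98, 10.1 and 14.4 FPKM in control 1, 2 and 3, and Gypc, glycophorin C, 16.2, 11.7 and 10.6 FPKM against 14.4, 17.2 and 14.4 FPKM. Both overlapped between genotypes, and the sign for Epb41 turned under several settings. Rhd, a blood group protein, measured 9.72, 0.256 and 11.1 FPKM in KO 1, 2 and 3, against 1.70, 2.34 and 1.79 FPKM in control 1, 2 and 3, high in the 2 libraries where receptor genes were also high. Tmod1, a tropomodulin of the membrane skeleton, likewise measured 3.85, 0.190 and 3.37 FPKM in KO 1, 2 and 3, against 0.0642, 0.135 and 0.152 FPKM in control 1, 2 and 3. Without KO 2, Rhd passed higher in KO (log2 difference 1.96, limma adjusted p = 0.00477) and Tfrc lower (-1.15, limma adjusted p = 0.0453). These 2 are 5.41% of the 37 tested, against 13% of all genes in that fit, so the list held a smaller share of calls than all genes. Rhd and Tmod1 were named after their values were seen, as were Nfe2, Tal1, Slc25a37 and Car1.

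Of the 10 tested genes of transcription and signalling, 6 had lower and 4 higher estimates. Ldb1, a cofactor that bridges Gata1 and Tal1 and is made in most cells, measured 125, 122 and 112 FPKM in KO 1, 2 and 3, against 126, 45.2 and 49.1 FPKM in control 1, 2 and 3, the reverse of the globins. Jak2, the kinase of the erythropoietin receptor and of other cytokine receptors, measured 40.6, 40.2 and 29.3 FPKM in KO 1, 2 and 3, against 49.5, 37.4 and 39.2 FPKM in control 1, 2 and 3. Nfe2, a factor of erythroid and megakaryocytic cells that neutrophils make too, measured 5.58, 2.23 and 12.1 FPKM in KO 1, 2 and 3, against 5.51, 47.4 and 50.6 FPKM in control 1, 2 and 3. Unlike the globins, it was no higher in control 2 than in control 3.

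Of 9 tested genes of late maturation, 8 had lower estimates. Cat, catalase, measured 74.3, 29.1 and 75.02 FPKM in KO 1, 2 and 3, against 66.3, 128 and 188 FPKM in control 1, 2 and 3. Bnip3l, which marks mitochondria for removal from young red cells, measured 34.5, 39.6 and 31.1 FPKM in KO 1, 2 and 3, against 33.8, 53.9 and 65.6 FPKM in control 1, 2 and 3. Both had their highest level in control 3, where globins were below control 2. Car1, the carbonic anhydrase most abundant in red cells, measured 3.51, 1.42 and 1.07 FPKM in KO 1, 2 and 3, against 0.271, 32.3 and 23.1 FPKM in control 1, 2 and 3. Without control 1, 3 genes of the wider list passed: Car1 at -3.33 (limma adjusted p = 0.0352), Slc25a37, the mitochondrial iron importer, at -1.89 (0.0255), and Ldb1 higher in KO at 1.33 (0.0331), which is 8.11% of the 37, against 2.6% of all genes in that fit. The embryonic globins Hbb-y and Hbb-bh1 had at most 3 reads in any library, and Hbq1b, a theta globin gene, had 0, 0 and 4 reads in KO 1, 2 and 3, against 0, 16 and 8 reads in control 1, 2 and 3.

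**Figure D4:**
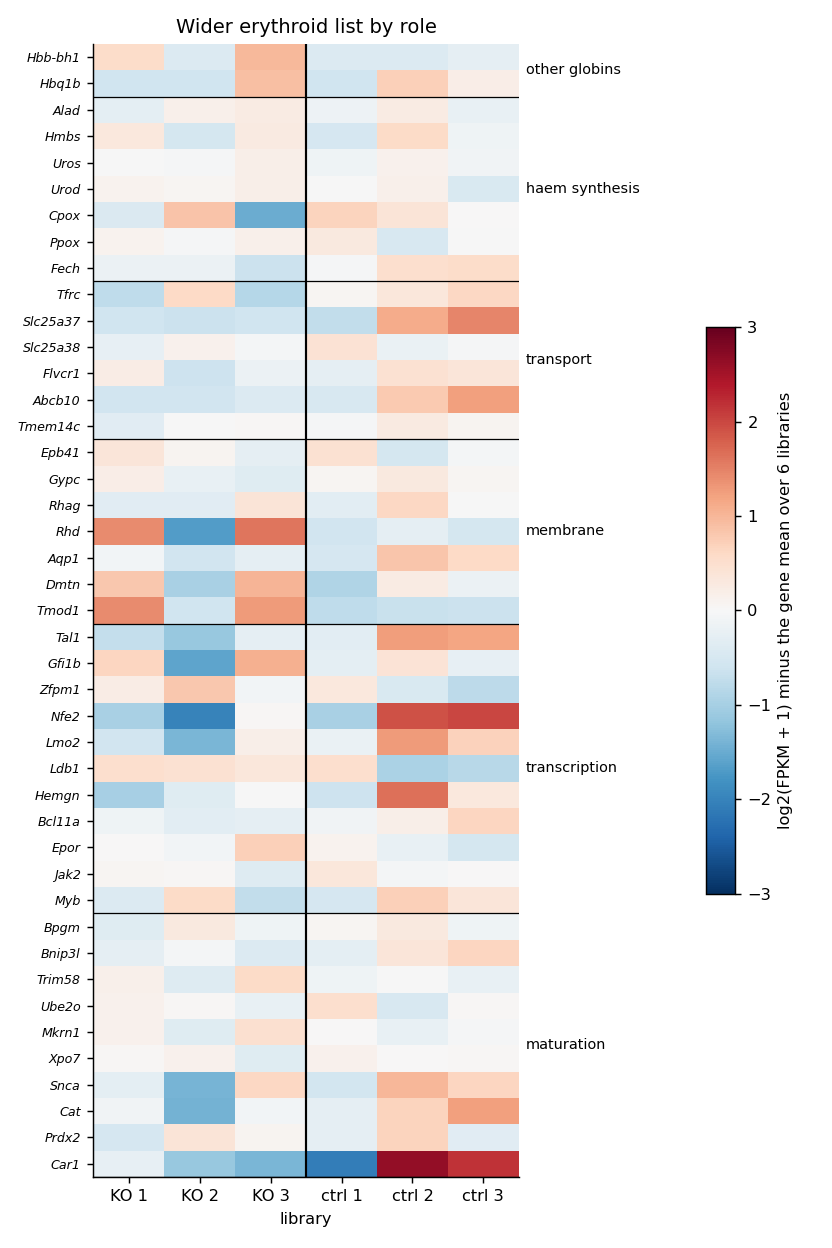
Heat map of 43 other erythroid genes with at least 1 FPKM in some library, grouped by role, with KO libraries left of control libraries. Colour is log2(FPKM + 1) minus the mean of the gene over 6 libraries, and Nfe2 and Car1 are red in control 2 and 3 while Ldb1 is blue there and Rhd is red in KO 1 and 3.

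The libraries with high globins were also those with high sums of neutrophil, eosinophil, and mast cell and basophil markers. The 11 neutrophil markers summed to 265, 71.9 and 705 FPKM in KO 1, 2 and 3, against 435, 16730 and 29150 FPKM in control 1, 2 and 3, and none was at 0 in any library. The neutrophil sum was highest in control 3, while globins were highest in control 2. Elane (973 against 461 FPKM), Mpo (273 against 203 FPKM) and Mmp8 (259 against 171 FPKM) were higher in control 2 than in control 3. The rest of the list was higher in control 3. The 11 red pulp macrophage markers, from cells that take up old red cells, summed to 850, 140 and 1658 FPKM in KO 1, 2 and 3, against 1078, 2730 and 1610 FPKM in control 1, 2 and 3, with none at 0. Hmox1, the haem oxygenase that opens the haem ring and that many stressed cells make, was most of that sum, at 705, 134 and 1304 FPKM in KO 1, 2 and 3, against 958, 2514 and 1457 FPKM in control 1, 2 and 3. The other 10 markers summed to 145, 6.20 and 354 FPKM in KO 1, 2 and 3, against 120, 215 and 153 FPKM in control 1, 2 and 3. Without Hmox1 the list was thus highest in KO 3, where 6 of the 10 had their highest level (Vcam1, Spic, C1qa, C1qb, C1qc and Cd163), and not in the libraries with high globins. The 5 B cell markers summed to 70.6, 41.5 and 50.8 FPKM in KO 1, 2 and 3, against 36.9, 13.7 and 8.90 FPKM in control 1, 2 and 3. No defining marker of these lists was absent from control 2 or control 3. The part of the other cell types in the differences between genotypes was not tested.

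**Figure D5:**
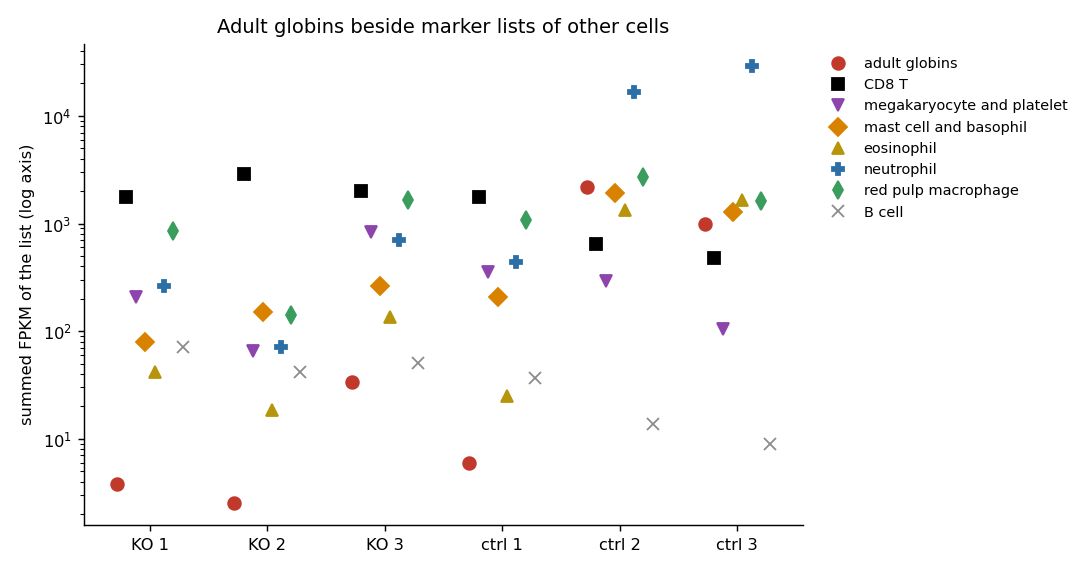
Summed FPKM of the 4 adult globins and of 7 marker lists in each library, on a log axis, points of a library being set side by side. Globins reach 2181 FPKM in control 2 and 992 FPKM in control 3 together with neutrophil, mast cell and basophil, and eosinophil markers, while CD8 T markers are lowest there.

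The genes whose profile lay closest to Hbb-bs were found by the root-mean-square distance between centred log2(FPKM + 1) values over the 6 libraries. Of the 6 nearest, Hba-a1 (distance 0.417) and Hbb-bt (0.855) came first, and the rest were the neutrophil genes S100a9 (0.921), Camp (0.990), S100a8 (1.006) and Ngp (1.19). S100a9, a calcium-binding alarmin, measured 100.3, 25.7 and 353 FPKM in KO 1, 2 and 3, against 164, 8684 and 16130 FPKM in control 1, 2 and 3. Slc4a1, with its narrower range, was nearest to Rbpj (0.144), Cyb5r1 (0.153), Pi4k2b (0.208), Eif4ebp1 (0.208), Soat2 (0.227) and Gng5 (0.229). Rbpj, the factor through which Notch acts, measured 3.72, 2.86 and 3.47 FPKM in KO 1, 2 and 3, against 2.54, 13.5 and 11.6 FPKM in control 1, 2 and 3. With 6 libraries, of which control 2 and control 3 set most of the distance, likeness of profile is a description only.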

How the data were processed

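RNA-seq of CD8+ T cells from mouse spleen was analysed in 3 KO and 3 control libraries, grouped by the sample titles. The authors deposited FPKM, 1 value per gene and library. The unit was read from the values, since the labels do not state it. The submitters' processing notes name the build mm8 and the tools HTSeq 0.6.0, HISAT2 2 and Bowtie2 2.2.3 without their roles. How FPKM were computed, with which annotation and strand setting, is not given in the sources used here. Symbols and exon lengths were taken from GENCODE M21, which matched 35358 of 35458 identifiers. FPKM times exon length gave multiples of a library's own step: under 200 reads, between 92.1% and 93.4% of values came within 0.02 of a whole read. That step gave the implied totals and reads. Exact intervals are at 95%, and a floor is 3 reads.

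The plan named a count model had counts been given. For FPKM, log2(FPKM + 1) was tested with limma 3.58.1 in R 4.3.3 (intensity trend, genotype term, Benjamini-Hochberg over all genes) for the 13956 genes that reached 1 FPKM in 3 or more libraries. The procedure was first tested on simulated data. Differences on this scale understate changes of low genes. The members and lists were chosen with earlier results of these data known. Named were all members, the 2 genes of highest mean in each of 6 roles of the wider list and the 6 genes nearest to Hbb-bs and to Slc4a1. Of the lists, 4 symbols were not analysed here. Sequences are RefSeq's. Other settings were leaving out each library, blocking on the replicate number, limma-voom, quantile normalization, no filter, a pseudocount of 0.1 and protein-coding genes only, and, chosen after seeing the data, control 2 and 3 or KO 1 and 3 left out together. Python 3.11.15, numpy 2.4.6, pandas 2.3.3, scipy 1.17.1 and matplotlib 3.10.9 were used.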

Additional observations from a re-analysis of the deposited data

How the results depend on the processing

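With 1 library left out at a time, 0 to 1821 genes passed, 0 to 4 erythroid members and 0 to 3 genes of the wider list. The 363 genes and 4 members passed without control 1, the 1821 genes without KO 2 (where 2 of the wider list passed), and 0 in the other 4 fits. The log2 difference of the summed globins was -4.88, between -7.46 and -3.31 with 1 library left out, and 0.27 without control 2 and 3 together. Without these, Hba-a1 was at 0.0282, Hba-a2 0.49, Hbb-bs 0.60, Hbb-bt 0.18, Klf1 0.56, Gata1 0.16, Bnip3l 0.0462, Ldb1 -0.0739 and Epb41 -0.39. Epb41 was at 0.11 with all libraries, -0.0823 after quantile normalization, and between -0.13 and 0.36 with 1 library left out. Tfrc was at 0.25 without KO 1 and 3 together. Leaving out a pair keeps 1 library of its genotype, and the fit then takes its variation from the other genotype. The cause of these shifts was not tested.

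Limma-voom, quantile normalization, a pseudocount of 0.1, no filter, and protein-coding genes alone called 0 genes, and the 7 tested members kept lower estimates in each. The replicate block also called 0 genes and 0 members. With it, 4 of 7 members had an unadjusted limma p under 0.05, against 1 without it. Of all 13956 genes tested, 1692 were under 0.05 with the block and 1646 without it. Deviations of libraries with the same number correlated at 0.112, 0.0202 and 0.0175 across genes for numbers 1, 2 and 3, and KO 3 correlated best with control 2 (0.139), so the numbers do not show a pairing. Alas2, Slc4a1, Hba-a2 and Hbb-bt had at most 7 reads in each library but control 2 and 3, so their values there carry wide counting error. KO 2 and control 1 had totals of 14683379 and 11840629, near the 15020102 and 15036258 of control 2 and 3.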
